A study of Mus musculus with 6 samples.

Results

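Aminoacyl-tRNA synthetases join each amino acid to its transfer RNA (tRNA), the step that makes the genetic code readable by the ribosome. Mammalian cells keep separate enzymes for the cytosol and for the mitochondrion, all of them encoded in the nucleus, and by convention most mitochondrial enzymes carry a symbol ending in 2. Several cytosolic synthetases are held together with the scaffold proteins Aimp1, Aimp2 and Eef1e1 in a multisynthetase complex, and many cytosolic synthetase genes are known targets of the transcription factor Atf4 when amino acids run short.

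The genes described here were chosen by a rule on symbols, set with earlier results of these data known. They are those whose symbol is a single capital letter followed by ars, with or without 1 or 2, together with Eprs, Farsa, Farsb and the scaffold proteins. A gene was kept where an array feature (a probe set for a transcript) was paired with that symbol and no other, and the feature with the highest mean signal was used for each gene. This gave 36 of the 22180 genes measured, namely 18 cytosolic synthetases, 16 mitochondrial synthetases, and the scaffold genes Aimp1 and Eef1e1. Aars shared its feature with Exosc6 and Aimp2 shared its feature with Eif2ak1, so neither entered, and Dars was not analysed here. Aimp1 and Nars2 had 2 features each and every other member had 1.

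The cells were J774A.1, an established macrophage-like line from a BALB/c mouse, grown in RPMI-1640 with 10% serum to 80% confluence. The NPFF group received neuropeptide FF, an RF-amide peptide, at 1 nM in phosphate-buffered saline (PBS) for 18 h, and the control group received the PBS vehicle for the same time. Each group had 3 samples that the titles call biological replicates, named here control 1 to 3 and NPFF 1 to 3, each measured on 1 whole-transcript array. No label states if the replicates came from separate days or cultures, so p-values measure only the spread between these samples, and the line is a single cell line with no primary cells beside it. Values are quantile-normalized log2 intensities, differences are NPFF minus control, and signals of different genes come from different probes and are not compared as levels.

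Most macrophage markers were bright, with Cd68 and Lyz2 at the 99.8th and 99.9th percentiles of mean signal. The median over 12 markers lay between 10.16 and 10.65 on the 6 arrays. The dimmest of the 12, Mertk and Aif1, lay at the 58.8th and 62.1st percentiles, near the epithelial marker Krt8 at the 62.7th. Medians of 8 fibroblast, 6 epithelial and 8 lymphocyte markers lay between 5.69 and 6.31, and these are brightnesses of features and not transcript amounts. Control 1 stood apart from the other arrays, with an SD over genes of 0.37 from their mean against 0.11 to 0.21 for the other 5, and the main results below are therefore given also without it. In bulk RNA of this kind, fewer cells making a transcript and less transcript per cell cannot be told apart.

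Most synthetase genes were slightly higher in the NPFF group with all 6 arrays, but not when control 1 was left out. Of the 36 genes, 28 were higher and 8 lower, with a median difference of 0.095. Over all genes 51.7% were higher with a median of 0.004, and of the genes above the 90th percentile of signal 60.3% were higher with a median of 0.034. By limma with Benjamini-Hochberg adjustment over all genes, 0 of the 36 passed at 0.05 and the adjusted p = 1 for each; the background was also 0% of all genes. At an unadjusted p under 0.05 there was 1 member, Fars2, on the lower side, where 2.51% of all genes reached that level, 0.834% as higher and 1.67% as lower. Control 1 was the lowest of the 6 arrays for 29 of the 36 members, against 48.9% of all genes and 54.9% of the 2218 genes above the 90th percentile of signal, and the part of that array in each result was not tested. Without control 1, 18 of the 36 were higher and the median was -0.003. Over all genes 39.1% were then higher with a median of -0.025, and above the 90th percentile of signal 47% with a median of -0.006. Of the 18 cytosolic synthetases, 16 were higher with all arrays and 12 without control 1, with medians of 0.112 and 0.015. Of the 16 mitochondrial synthetases, 11 were higher with all arrays and 4 without control 1, with medians of 0.112 and -0.048.

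**Figure D1:**
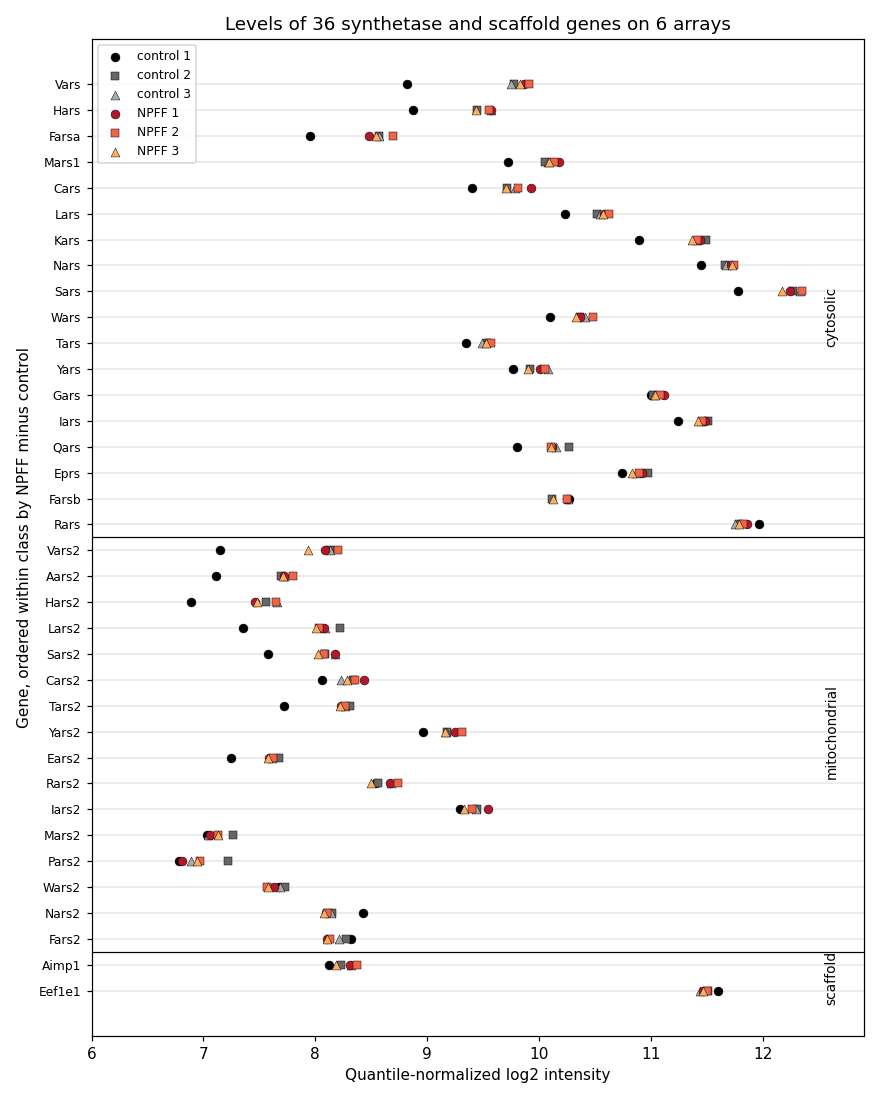
Quantile-normalized log2 intensity (x axis) of each of the 36 genes (y axis) on the 6 arrays, with black and grey symbols for control and red to yellow symbols for NPFF. Control 1, the black circle, lies left of the other arrays for most genes, with Vars at 8.82 on that array and between 9.75 and 9.91 on the others.

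Groups did not overlap in 5 cytosolic genes, all higher in NPFF, and in 3 mitochondrial genes, all lower. Over all genes, 8.58% had groups that did not overlap, 3.67% as higher and 4.92% as lower, and above the 90th percentile of signal the shares were 8.93% and 6.9%. The 5 higher genes were Vars, Mars1, Lars, Nars and Gars, and the 3 lower genes were Wars2, Nars2 and Fars2. The upstream DNA of those that have an entry in the RefSeq promoter table (GRCm38.p6) is shown next, since these are the members whose arrays separated; Tars is added because it shares a motif with Gars. Each line gives the 250 bases before the annotated start, 5′ to 3′ on the gene's strand, and capitals mark TGATGNAA, the core of the element through which Atf4 and its partners act, read on either strand. The cytosolic windows are Gars at chr6:55037751-55038000 (plus strand), Mars1 at chr10:127311787-127312036 (minus strand) and Tars at chr15:11399659-11399908 (minus strand). The mitochondrial windows are Fars2 at chr13:36117393-36117642 (plus strand), Nars2 at chr7:96951277-96951526 (plus strand) and Wars2 at chr3:99140840-99141089 (plus strand).
Gars: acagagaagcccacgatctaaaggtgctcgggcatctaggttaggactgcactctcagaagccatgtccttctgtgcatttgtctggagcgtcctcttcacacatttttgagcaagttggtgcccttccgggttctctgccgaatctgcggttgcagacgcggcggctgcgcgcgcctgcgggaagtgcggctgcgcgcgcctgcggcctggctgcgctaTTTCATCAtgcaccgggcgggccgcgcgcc
Mars1: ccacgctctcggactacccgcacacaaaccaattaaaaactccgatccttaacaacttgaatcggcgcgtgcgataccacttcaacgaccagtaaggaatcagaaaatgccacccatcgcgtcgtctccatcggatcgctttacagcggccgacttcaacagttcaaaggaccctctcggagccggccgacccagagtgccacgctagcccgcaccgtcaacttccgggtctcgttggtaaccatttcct
Tars: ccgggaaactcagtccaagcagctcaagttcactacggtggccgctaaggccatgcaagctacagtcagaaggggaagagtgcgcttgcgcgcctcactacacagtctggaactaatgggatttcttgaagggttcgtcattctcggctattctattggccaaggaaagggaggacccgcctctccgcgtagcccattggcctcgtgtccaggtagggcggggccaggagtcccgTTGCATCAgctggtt
Fars2: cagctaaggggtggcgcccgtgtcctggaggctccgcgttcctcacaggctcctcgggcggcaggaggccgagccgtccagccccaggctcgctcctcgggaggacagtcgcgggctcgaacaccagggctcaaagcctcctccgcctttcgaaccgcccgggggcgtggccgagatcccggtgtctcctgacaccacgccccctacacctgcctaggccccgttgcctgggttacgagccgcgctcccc
Nars2: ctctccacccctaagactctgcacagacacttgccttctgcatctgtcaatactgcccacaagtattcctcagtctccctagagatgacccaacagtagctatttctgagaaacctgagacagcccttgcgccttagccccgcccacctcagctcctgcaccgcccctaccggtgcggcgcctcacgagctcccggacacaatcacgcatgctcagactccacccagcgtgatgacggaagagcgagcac
Wars2: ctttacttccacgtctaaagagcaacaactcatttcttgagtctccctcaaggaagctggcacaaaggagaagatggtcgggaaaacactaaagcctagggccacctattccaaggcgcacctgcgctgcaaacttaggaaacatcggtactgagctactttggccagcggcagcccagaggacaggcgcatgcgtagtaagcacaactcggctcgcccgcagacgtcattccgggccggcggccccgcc

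The promoter table matched 27 of the 36 members by gene identifier, 11 cytosolic, 14 mitochondrial and 2 scaffold genes. TGATGNAA was found on either strand upstream of 2 of the 11 cytosolic genes, Gars and Tars, and of 0 of the 14 mitochondrial genes. It was found in 3.45% of all 32851 windows of the same length. In Gars the match began 30 bases before the start and in Tars 15 bases before it. Matches to GGGCGG, the GC box bound by Sp1, were present upstream of 6 of the 11 cytosolic and 10 of the 14 mitochondrial genes, against 32.7% of all windows. For every motif a gene counted if any window listed for it matched, while the shares over all are of single windows. The 2 are therefore not strictly alike. CCGGAAGT, an ETS factor core, was found in Farsa and Mars1 and in the scaffold gene Aimp1, and in 2.88% of all windows. CACGTG, the E-box read by Myc and Max, was found in Farsb and Iars and in 6.02% of all windows. All motifs were searched on both strands, and neither match to TGATGNAA shared bases with a match to another of these motifs. These are matches of letters and say nothing of binding.

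Among the synthetases of the multisynthetase complex, 7 were measured (Eprs, Iars, Kars, Lars, Mars1, Qars and Rars). Their median difference was 0.051, with 6 higher, and -0.028 with 3 higher when control 1 was left out, beside 39.1% higher and -0.025 over all genes. Mars1, which charges methionine tRNA including the initiator, stood at 9.72, 10.05 and 10.08 in the controls and 10.18, 10.13 and 10.09 in NPFF, with no overlap. Its difference was 0.18 (SE 0.11), or 1.14-fold, and 0.070 without control 1. Lars, the leucine enzyme that also takes part in leucine sensing by mTORC1, stood at 10.23, 10.52 and 10.54 in the controls and 10.58, 10.62 and 10.57 in NPFF, a difference of 0.16 (SE 0.10). Without control 1 it was 0.064, so for both genes the separation from controls 2 and 3 was small. Rars, the arginine enzyme, was the only complex member with the opposite sign, at 11.97, 11.79 and 11.75 in the controls and 11.86, 11.83 and 11.79 in NPFF, where control 1 was the highest array and the groups overlapped; its difference of -0.013 (SE 0.078) was 0.054 without that array. Eprs, which joins the glutamate and proline enzymes in a single chain, differed by 0.023 (SE 0.079), the isoleucine enzyme Iars by 0.051 (SE 0.085) and the glutamine enzyme Qars by 0.035 (SE 0.12). Without control 1 Iars, Qars and Eprs were lower, at -0.028, -0.10 and -0.037.

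Kars and Gars each supply both compartments from a single gene, through alternative transcripts or start sites that 1 feature cannot separate. Kars, the lysine enzyme and a complex member, stood at 10.90, 11.49 and 11.40 in the controls and 11.44, 11.41 and 11.37 in NPFF. Its difference of 0.14 (SE 0.16) became -0.040 without control 1. Gars, the glycine enzyme, stood at 11.00, 11.02 and 11.03 in the controls and 11.12, 11.08 and 11.03 in NPFF, a difference of 0.065 (SE 0.059). Gars did not share the low value in control 1: its 3 controls spanned 0.025, the narrowest control range among the 36 genes, and its difference without control 1 was 0.058. The groups separated narrowly, with control 3 at 11.025 and NPFF 3 at 11.033.

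The 11 cytosolic synthetases outside the complex had a median difference of 0.12, with 10 higher. Without control 1 it was 0.020 with 9 higher, beside -0.025 and 39.1% higher over all genes. Vars, the valine enzyme, had the largest difference of all members: 8.82, 9.78 and 9.75 in the controls and 9.86, 9.91 and 9.83 in NPFF, or 0.42 (SE 0.25) and 1.34-fold. The control values span 0.96, so the SE is large, and without control 1 the difference was 0.10. Nars, the asparagine enzyme, stood at 11.45, 11.66 and 11.67 in the controls and 11.71, 11.74 and 11.72 in NPFF, a difference of 0.13 (SE 0.08) that was 0.062 without control 1. Both genes separated the groups without overlap, and in both the gap was mostly that to control 1.

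Hars, the histidine enzyme, stood at 8.87, 9.45 and 9.57 in the controls and 9.57, 9.55 and 9.43 in NPFF. Farsa, the catalytic chain of the phenylalanine enzyme, stood at 7.96, 8.57 and 8.57 in the controls and 8.48, 8.70 and 8.54 in NPFF. Their differences of 0.22 (SE 0.18) and 0.21 (SE 0.18) were 0.011 and 0.004 without control 1, and the groups overlapped. Farsb, the partner chain in the same enzyme, differed by -0.005 (SE 0.075) with values of 10.26, 10.12 and 10.26 against 10.25, 10.25 and 10.12, so the 2 chains did not show the same pattern over the arrays. Sars, the serine enzyme, stood at 11.78, 12.27 and 12.33 in the controls and 12.24, 12.35 and 12.17 in NPFF, and its difference of 0.13 (SE 0.15) was -0.048 without control 1. Cars (cysteine) differed by 0.18 (SE 0.12), Wars (tryptophan, known to be induced by interferon gamma) by 0.10 (SE 0.10), Tars (threonine) by 0.090 (SE 0.071) and Yars (tyrosine) by 0.069 (SE 0.097). Without control 1 these were 0.065, 0.002, 0.036 and -0.009.

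The scaffold genes showed little difference. Aimp1, which also has a secreted cytokine form, stood at 8.12, 8.22 and 8.32 in the controls and 8.31, 8.37 and 8.19 in NPFF, or 0.071 (SE 0.083), and 0.020 without control 1. Its dimmer feature gave -0.07. Eef1e1, also called Aimp3 and linked to the DNA damage response, stood at 11.60, 11.51 and 11.44 in the controls and 11.46, 11.51 and 11.46 in NPFF, or -0.038 (SE 0.067). The sign of Eef1e1 turned without control 1, at 0.004.

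**Figure D2:**
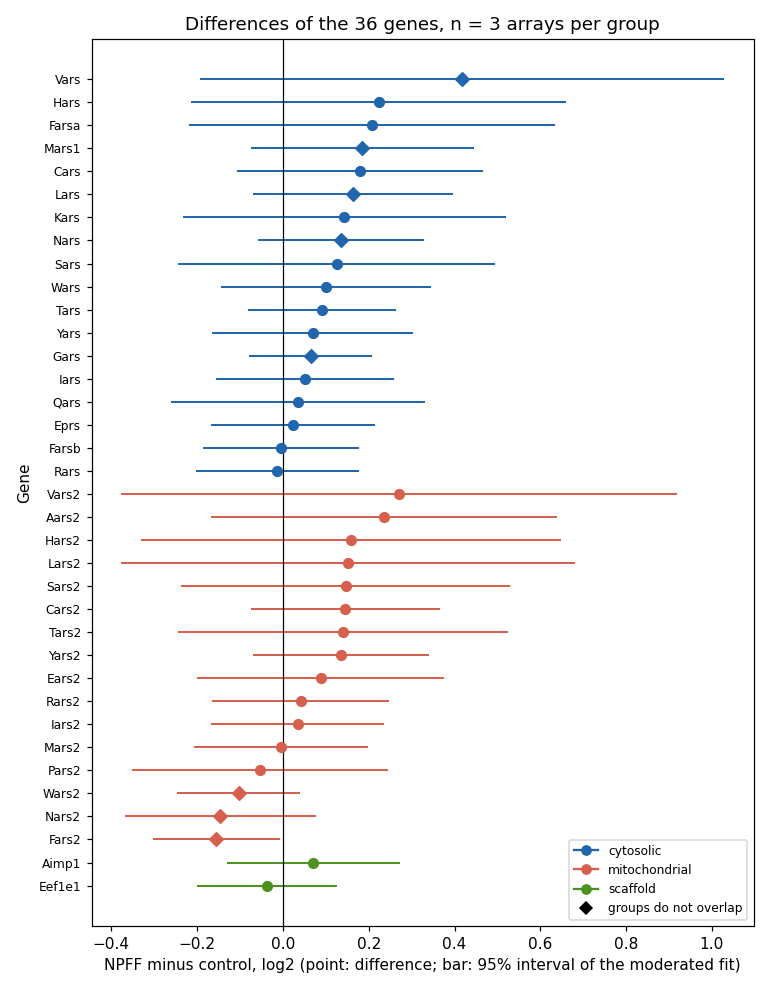
NPFF minus control on the log2 scale (x axis) for each gene (y axis), with the 95% interval of limma's moderated fit and n = 3 arrays per group; diamonds mark genes whose groups do not overlap. The interval includes 0 for 35 of the 36 genes, the exception being Fars2 at -0.15.

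The mitochondrial class divided into genes that were low in control 1 and genes that were not. Of its 16 genes, 11 were higher and 5 lower, with a median difference of 0.11, and without control 1 only 4 of the 16 were higher and the median was -0.048, beside 39.1% and -0.025 over all genes. Fars2, the mitochondrial phenylalanine enzyme, stood at 8.32, 8.27 and 8.21 in the controls and 8.10, 8.13 and 8.11 in NPFF. Its difference of -0.15 (SE 0.06), or 0.898-fold, had an unadjusted p = 0.0397 and an adjusted p = 1 by limma, and it was -0.13 without control 1 and -0.10 against control 3 alone. Wars2, for tryptophan, stood at 7.67, 7.73 and 7.69 in the controls and 7.63, 7.57 and 7.58 in NPFF, or -0.10 (SE 0.06), and -0.115 without control 1. All 3 NPFF arrays were below all 3 controls in both genes. Control 1 was the highest control for Fars2 and the lowest for Wars2.

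Nars2, for asparagine, stood at 8.43, 8.15 and 8.14 in the controls and 8.10, 8.10 and 8.08 in NPFF. Here control 1 was the highest array, and the difference of -0.15 (SE 0.09) was -0.053 without it. The second Nars2 feature, which is dimmer, read 6.32, 6.28 and 6.16 in the controls and 6.03, 6.18 and 6.13 in NPFF, a difference of -0.14 with overlapping groups. Pars2, for proline, and Mars2, for methionine, were the other mitochondrial genes with a negative sign, at -0.053 (SE 0.12) and -0.005 (SE 0.084). Pars2 stood at 6.78, 7.21 and 6.89 in the controls and 6.81, 6.97 and 6.95 in NPFF, and Mars2 at 7.03, 7.26 and 7.04 and 7.05, 7.13 and 7.13. In both it was control 2 that stood out, as the highest array.

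The remaining 11 mitochondrial genes were higher on average, and all had overlapping groups. Vars2 stood at 7.15, 8.13 and 8.13 in the controls and 8.09, 8.20 and 7.94 in NPFF, a difference of 0.27 (SE 0.27) that was -0.056 without control 1. Aars2, the mitochondrial alanine enzyme, stood at 7.11, 7.70 and 7.72 in the controls and 7.72, 7.80 and 7.71 in NPFF, a difference of 0.23 (SE 0.17) that was 0.036 without control 1. Cars2, which in addition makes cysteine persulfides, stood at 8.06, 8.34 and 8.23 in the controls and 8.43, 8.35 and 8.28 in NPFF, and its 0.15 (SE 0.09) was 0.071 without control 1. Yars2 stood at 8.97, 9.18 and 9.17 against 9.25, 9.31 and 9.16, and its 0.14 (SE 0.08) was 0.066. Lars2, Hars2, Sars2 and Tars2, at 0.14 to 0.16, all turned sign without control 1, to between -0.115 and -0.037. The glutamate enzyme Ears2 differed by 0.088 (SE 0.12), the arginine enzyme Rars2 by 0.041 (SE 0.085) and the isoleucine enzyme Iars2 by 0.034 (SE 0.083). Iars2 stood at 9.29, 9.44 and 9.43 in the controls and 9.54, 9.40 and 9.33 in NPFF, and Rars2 at 8.54, 8.56 and 8.68 and 8.66, 8.74 and 8.50, and without control 1 Ears2, Rars2 and Iars2 read -0.044, 0.016 and -0.015.

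**Figure D3:**
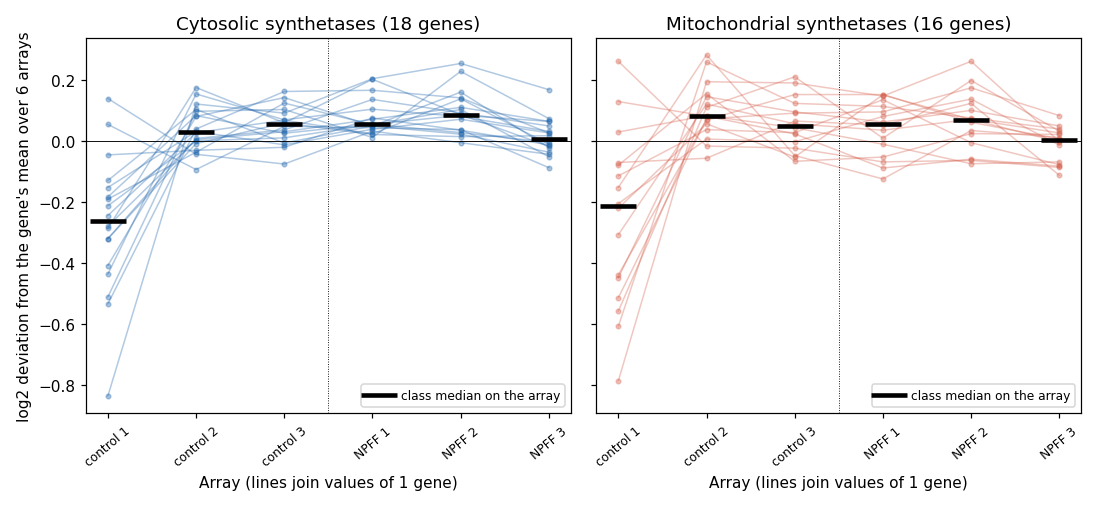
Log2 deviation of each gene from its own mean over the 6 arrays (y axis) by array (x axis), for cytosolic (left) and mitochondrial (right) synthetases; thin lines join the values of a gene and black bars are class medians. The medians in control 1 are -0.26 and -0.21, and on the other arrays they lie between 0.002 and 0.085.

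Set side by side, the 2 compartments had the same median difference, 0.11 in each. As medians of the deviation from each gene's mean, the cytosolic class read -0.26, 0.029 and 0.054 in the controls and 0.054, 0.085 and 0.006 in NPFF. The mitochondrial class read -0.21, 0.082 and 0.049 in the controls and 0.057, 0.070 and 0.002 in NPFF. Both classes thus had the same outlying array, and in both the groups overlapped. The corresponding median over all genes was -0.074 in control 1 and between -0.003 and 0.052 elsewhere, and over genes above the 90th percentile of signal it was -0.105 in control 1. The classes also lay in different ranges of signal, with median percentiles of 95.5 for the cytosolic and 72.1 for the mitochondrial class. Above the 90th percentile lay 16 of the 18 cytosolic and 0 of the 16 mitochondrial genes. The part of brightness in the comparison of the classes was not tested.

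The cytosolic minus the mitochondrial median within an array removes only a shift of equal size in both classes. It was -0.049, -0.053 and 0.004 in the controls and -0.003, 0.015 and 0.004 in NPFF, and the groups overlapped. The control arrays averaged -0.033 ± 0.032 and the NPFF arrays 0.005 ± 0.009 (SD, n = 3 for each). The difference between the 2 classes' median NPFF effects was 0.001 with all arrays, 0.063 without control 1, -0.018 without control 2 and 0.045 against control 3 alone, so its size and sign depended on the arrays used. No p-value is given for these class scores, whose genes are not replicates.

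Enzymes for the same amino acid could be set against each other in 16 gene pairs for 15 amino acids, where Eprs and Fars2 each enter 2 pairs. The cytosolic partner had the more positive difference in 11 of the 16, with a median of 0.049, and in 12 with a median of 0.099 when control 1 was left out. The classes differ in brightness, as given above, and its part in these counts was not tested. Both partners were higher in 9 pairs, both lower in 1, the cytosolic higher and the mitochondrial lower in 5, and the reverse in 1. The log2 ratio of Vars to Vars2, relative to its control mean, was 0.02, 0.00 and -0.03 in the controls and 0.13, 0.07 and 0.24 in NPFF. Both valine genes were low in control 1 by a like amount, so the ratio was steady over the controls, and its difference was 0.15 with control 1 and 0.16 without. The ratio of Wars to Wars2 was -0.17, 0.05 and 0.13 in the controls and 0.14, 0.31 and 0.16 in NPFF, a difference of 0.20 that was 0.12 without control 1. Here all 3 NPFF arrays lay above all 3 controls, and NPFF 1 lay close to control 3.

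The largest ratio differences were those of Farsa to Fars2 at 0.36 and Nars to Nars2 at 0.28, and these became 0.133 and 0.115 without control 1. The ratio of Farsb, the other chain, to Fars2 differed by 0.15 with or without control 1. Mars1 to Mars2 differed by 0.19 and by 0.12 without control 1. At the other end, Yars to Yars2 differed by -0.066, Eprs to Ears2 by -0.065, Rars to Rars2 by -0.054, Tars to Tars2 by -0.050 and Sars to Sars2 by -0.021. Lars to Lars2 moved from 0.012 to 0.18 without control 1, and to -0.11 without control 2; Lars2 stood at 7.35, 8.22 and 8.09 in the controls and 8.08, 8.04 and 8.0 in NPFF.

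**Figure D4:**
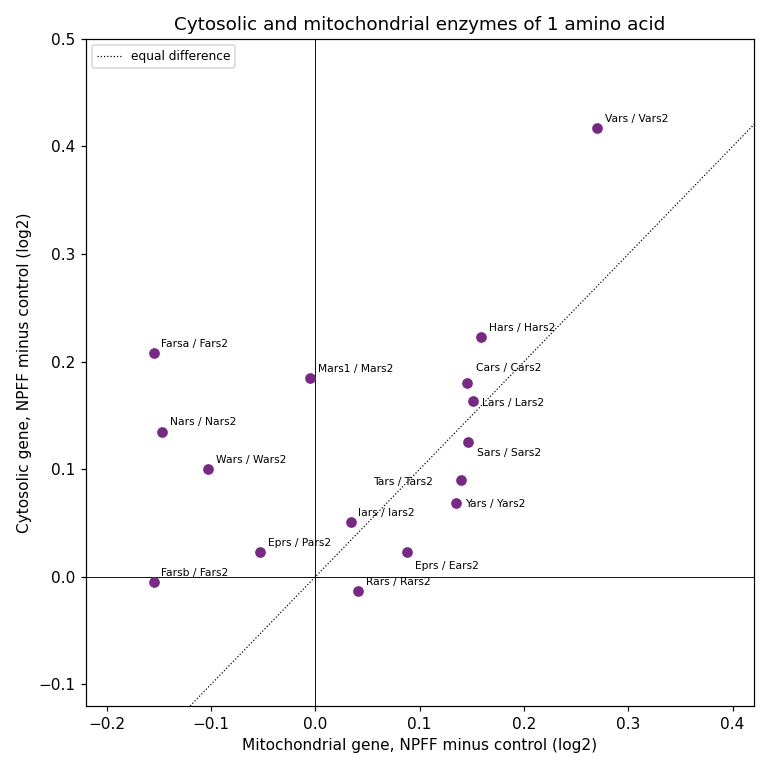
NPFF minus control (log2) of the cytosolic gene (y axis) against that of the mitochondrial gene for the same amino acid (x axis), 16 pairs; the dotted line marks equal differences. Vars with Vars2 lies at the top right, at 0.42 and 0.27, and Farsa with Fars2 lies farthest above the line, at 0.21 and -0.15.

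Leaving out single arrays showed which members kept their size. In 33 of the 36 the difference turned its sign or moved by more than 1.5 times when 1 of the 6 arrays was left out, and in 19 the sign turned. The 3 others were Gars, from 0.044 to 0.088, Wars2, from -0.12 to -0.087, and Fars2, from -0.18 to -0.13. Against control 3 alone, 18 of the 36 had the opposite sign. The SD was larger in the control group in 32 of the 36, with a median of 0.17 against 0.04 in NPFF. Over all genes the medians were 0.14 and 0.07. No share over all genes is given for the counts in this paragraph, so they do not set the members apart from other genes.

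**Figure D5:**
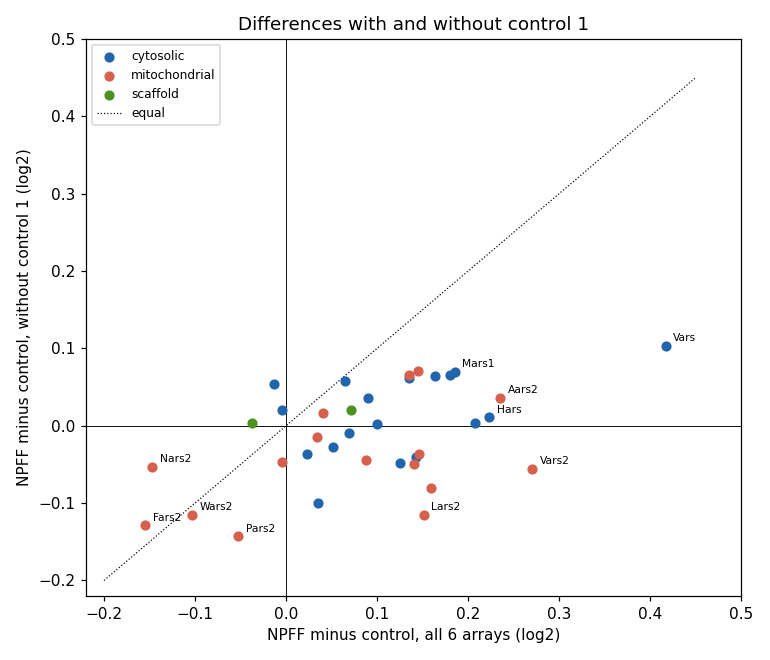
NPFF minus control (log2) with all 6 arrays (x axis) against the same difference without control 1 (y axis) for the 36 genes, coloured by class; the dotted line marks equal values. Vars moves from 0.42 to 0.10, while Fars2, at -0.15 and -0.13, and Wars2, at -0.10 and -0.115, lie near the line.

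The genes that Atf4 and its relatives are known to switch on during amino acid shortage were also slightly higher with all arrays and close to 0 without control 1. Of 32 measured, 28 were higher, with a median difference of 0.079, and 19 with a median of 0.004 without control 1. None passed limma after adjustment over all genes (adjusted p = 1 for each), 2 were higher and 0 lower at an unadjusted p under 0.05, against 0.834% and 1.67% of all genes, and groups did not overlap in 3 higher and 1 lower, against 3.67% and 4.92% of all genes. Atf4 itself was the lower gene: 9.67, 9.61 and 9.66 in the controls and 9.56, 9.57 and 9.50 in NPFF, a difference of -0.10 (SE 0.06) that was -0.091 without control 1. Atf4 is controlled mainly at translation, so its transcript is an incomplete measure of its activity. Ddit3, a stress transcription factor downstream of Atf4, stood at 9.57, 9.77 and 9.84 in the controls and 9.63, 9.61 and 9.54 in NPFF, or -0.14 (SE 0.09), and its difference was -0.22 without control 1.

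On the higher side, Fgf21, a hormone gene induced by Atf4, stood at 5.96, 6.0 and 6.03 in the controls and 6.28, 6.18 and 6.25 in NPFF, or 0.24 (SE 0.06, adjusted p = 1 by limma). Its signal lay at the 39.4th percentile, and its difference without control 1 was 0.22. Cebpg, a dimerization partner of Atf4, stood at 8.84, 9.25 and 9.16 against 9.28, 9.45 and 9.39, a difference of 0.29 (SE 0.12) that was 0.165 without control 1. Slc7a1, a transporter of arginine and lysine, differed by 0.17 (SE 0.09) and by 0.091 without control 1. The serine synthesis enzyme Psph differed by 0.22 (SE 0.09), with overlap, and by 0.15 without control 1. Asns, the asparagine synthetase commonly used as a marker of this response, differed by 0.079 (SE 0.11) and by -0.023 without control 1.

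The listed kinases, sensors and regulators linked to that response were divided 5 higher to 5 lower of 10 with a median of 0.012. Without control 1 only 1 was higher and the median was -0.070. In 0 of them did the groups separate, where 8.58% of all genes had groups that did not overlap. Eif2ak4, or Gcn2, the kinase that uncharged tRNA activates, differed by -0.11 (SE 0.08), Eif2ak1 by -0.12 (SE 0.08) and Gcn1, the partner of Gcn2, by 0.29 (SE 0.26). Without control 1 these were -0.16, -0.088 and -0.017. Of 7 genes of cytosolic elongation, 5 were higher with a median of 0.075, and 3 with a median of -0.008 without control 1. Eif5a differed by 0.40 (SE 0.27) and by 0.067 without control 1. Eef1d and Eef1b2, subunits of the nucleotide exchange factor for the tRNA carrier, differed by 0.21 (SE 0.14) and 0.075 (SE 0.064), and by 0.060 and 0.068 without control 1. Of 15 mitochondrial translation factors, 10 were higher with a median of 0.018, and 3 with a median of -0.041 without control 1. Among them Gatc and Qrsl1 are subunits of the amidotransferase that makes charged glutamine tRNA in mitochondria, which have no separate aminoacyl-tRNA synthetase for glutamine. Gatc differed by -0.16 (SE 0.10) and Qrsl1 by 0.21 (SE 0.16), and by -0.085 and 0.073 without control 1. The initiation factor Mtif2 differed by -0.097 (SE 0.071) and by -0.064 without control 1. Of 8 synthetase-like and tRNA proofreading genes 5 were higher with a median of 0.011, and 2 with a median of -0.080 without control 1. Pstk, a kinase of the selenocysteine pathway, stood at 7.56, 7.58 and 7.60 in the controls and 7.53, 7.48 and 7.38 in NPFF, with no overlap. Its difference was -0.11 (SE 0.06) and -0.12 without control 1. In these 4 lists 0 genes passed limma after adjustment over all genes, and 0 had an unadjusted p under 0.05. The shares over all genes were 0% and 2.51%, so these counts do not set the lists apart.

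The 10 measured mitochondrially encoded genes, which mitochondrial synthetases serve, had a median deviation of 0.14 in control 1 and -0.097 in control 2, and between -0.023 and -0.002 on the other 4 arrays. By these medians control 1 was the highest array for these genes and the lowest for both synthetase classes. In control 1, 9 of the 10 lay above their own mean over the arrays. Their median signal was 13.54, where the brightest gene on any array read 13.93. Their median difference was -0.025, with 8 of 10 lower, and 0.043 with 9 higher without control 1.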

How the data were processed

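Log2 intensities were measured on 6 arrays, 3 control and 3 NPFF, with 500 ng of RNA per sample per the labels' protocols. The deposited values are log2 intensities per feature, judged by a range of 4.59 to 14.0; how the authors corrected background and normalized, and their genome build, is not given in the sources used here. A platform annotation paired 23521 of 33794 features with 1 symbol, 1814 with several and 8459 with none. Sorted values of the deposited arrays differed by up to 0.172 log2 from their mean, so quantile normalization over all features was applied; the brightest feature of each gene was kept and no dim feature was removed. limma (version 3.58.1, R 4.3.3; lmFit and eBayes on group, 4 residual and 2.49 prior degrees of freedom) was fitted on all 22180 genes, with two-sided tests, Benjamini-Hochberg adjustment and a threshold of 0.05. SE are from that fit, and SD are over 3 arrays. The script was tested on simulated data.

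Members and gene lists were chosen with earlier results of these data known. Values of every array were given for members whose groups did not overlap, for the smallest p in each class and direction, for the brightest and dimmest features, and for Kars and Gars. The first 3 or 4 genes by p were named per list (1 for synthetase-like genes, none for mitochondrially encoded genes and cell markers). Asns, Ddit3, Atf4 and the markers Cd68, Lyz2, Mertk, Aif1 and Krt8 were added after their values were seen. Some list genes (among them Pycr1, Slc6a9, Eif2s1, Mtrfr, Aarsd1, Trnt1, Krt5, mt-Co2, mt-Atp6 and mt-Atp8) were not analysed here. Alternatives were the values as deposited, median centring, cyclic loess, removal of the dimmest 20%, the mean over features, array weights, the replicate block and the removal of arrays. Arrays have no counting depth, and their number limits the precision. Promoter sequences are from RefSeq (GRCm38.p6).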

Additional observations from a re-analysis of the deposited data

How the results depend on the processing

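The count of genes past limma's adjusted threshold was 0 in all 14 alternatives, and 0 of the 36 members passed in any; at an unadjusted p under 0.05 the count over all genes was 556 and ranged from 235 to 2397. Of those 556, 33.3% were higher, against 19% as deposited, 12.1% after median centring, 42.4% under cyclic loess and 57.6% if control 2 was left out. With single arrays left out, the median difference ran from 0.015 to 0.17 for the cytosolic class, -0.048 to 0.17 for the mitochondrial class, -0.011 to 0.046 for the scaffold genes and 0.004 to 0.14 for Atf4 and amino acid response genes, and the cytosolic minus mitochondrial difference from -0.018 to 0.063. In the gene-by-gene array weights control 1 weighed 0.121 and control 3 weighed 2.374. With these weights the cytosolic median was 0.014, the mitochondrial median -0.017 and the class difference 0.031. Without controls 1 and 2 together the same values were 0.011, -0.035 and 0.045. The median of the Atf4 and amino acid response genes was 0.034 with the weights and 0.027 without controls 1 and 2. The normalization alternatives, the dim filter, the mean over features and the replicate block all kept control 1. Under them the cytosolic median lay between 0.096 and 0.123 and the mitochondrial median between 0.082 and 0.118. The scaffold median turned sign with the mean over features, from 0.017 to -0.017. It was 0.043 as deposited and 0.046 after median centring. With the replicate number as a block the cytosolic and mitochondrial medians were both 0.112, and the unadjusted count was 396. A check of pairing gave 0.23, 0.45 and -0.33 for same-numbered arrays, and -0.5 to 0.41 for control and NPFF arrays of different number. Values of both kinds have both signs and do not settle if the numbers pair the arrays. Correlations of the whole arrays, a different measure, were 0.9784, 0.9948 and 0.9963 for the same-numbered arrays. For control and NPFF arrays of different number they ran from 0.972 to 0.9976. Members that changed sign with an array left out were Kars from -0.040 to 0.26, Sars from -0.048 to 0.23, Yars from -0.009 to 0.15, Iars from -0.028 to 0.10, Qars from -0.10 to 0.13, Eprs from -0.037 to 0.080, Farsb from -0.054 to 0.037, Rars from -0.054 to 0.054, Vars2 from -0.056 to 0.43, Hars2 from -0.081 to 0.30, Lars2 from -0.12 to 0.32, Sars2 from -0.037 to 0.26, Tars2 from -0.050 to 0.25, Ears2 from -0.044 to 0.17, Rars2 from -0.010 to 0.11, Iars2 from -0.025 to 0.082, Mars2 from -0.047 to 0.071, Pars2 from -0.14 to 0.074, Eef1e1 from -0.077 to 0.004. With controls 1 and 2 both left out the sign changed for Hars -0.051, Sars -0.079, Wars -0.018, Yars -0.089, Qars -0.042, Rars 0.070, Vars2 -0.054, Hars2 -0.13, Lars2 -0.048, Sars2 -0.079, Tars2 -0.025, Ears2 -0.012, Rars2 -0.045, Iars2 -0.010, Mars2 0.065, Pars2 0.022, Aimp1 -0.026 and Eef1e1 0.041. With array weights it changed for Sars -0.044, Yars -0.036, Iars -0.002, Qars -0.057, Rars 0.058, Vars2 -0.017, Hars2 -0.085, Lars2 -0.049, Sars2 -0.028, Tars2 -0.017, Ears2 -0.015, Rars2 -0.006, Mars2 0.005 and Eef1e1 0.016, after cyclic loess for Qars -0.011 and Iars2 -0.009, and with arrays centred on their medians for Mars2 0.002. The cause of these changes was not tested.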

Other observations

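Features shared by several genes were outside the comparisons. The feature that Aars, the cytosolic alanine enzyme, shares with Exosc6 read 8.67, 8.92 and 9.01 in the controls and 9.07, 9.04 and 8.96 in NPFF, a difference of 0.16. The feature that the scaffold gene Aimp2 shares with Eif2ak1 read 9.61, 9.64 and 9.85 in the controls and 9.83, 9.94 and 9.69 in NPFF, a difference of 0.12, with overlapping groups. Which of the 2 genes each signal comes from cannot be told apart.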
